A study of Homo sapiens with 24 samples.

Results

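The genes described here encode the proteins of the cytosolic ribosome. They are the protein-coding genes of the GENCODE annotation named RPL or RPS with a number (the suffixes A, X and L allowed), together with RPLP0, RPLP1, RPLP2 and RPSA, and exclude pseudogenes, RPS6K kinases and genes on the Y chromosome. This gave 82 of 20176 protein-coding genes, 32 of the small subunit and 50 of the large subunit, and 9428 of 1828222 splicing measurements lay on their strand and within their span, 3165 of them at exon–intron boundaries. All samples came from HCT116, a human colorectal carcinoma cell line. Its cells were made to overexpress either wild-type (WT) PHF5A or PHF5A carrying the Y36C substitution, on top of the PHF5A the line already makes, and were treated for 6 h with the solvent DMSO or with E7107. Each of the 4 combinations of genotype and treatment was measured in 6 samples, and the sample labels give no dose. The study's methods describe 6 replicate treatments per group and do not say whether these came from independent cultures, so the p-values measure the spread between these samples.

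Ribosomal protein (RP) genes are among the most actively transcribed genes of a growing cell, and their transcripts are short, with several small introns that are normally removed almost completely. Several of these introns carry small nucleolar RNAs, which guide the modification of ribosomal RNA. Introns are recognised at their 3′ end by U2 snRNP, whose SF3b complex holds the branch point adenosine, and PHF5A is a subunit of SF3b. E7107, a derivative of pladienolide, binds SF3b and interferes with the recognition of the branch point.

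The files give percent spliced in (PSI): the share of the reads at one splice site that take one route. At each end of an intron, the boundary PSI is the percentage of reads that run from exon into intron without a splice, and it was used as the measure of retention. A site without reads was treated as missing. The 82 genes had 381 introns in their main transcripts, and 732 of their boundaries were listed. RPL10L has no intron, and RPL3L and RPL39L, paralogs known from muscle and germ cells, had no boundary with reads in all samples, which left 79 genes. In some main transcripts an annotated exon was hardly used by these cells, so that the boundary PSI was not a measure of retention. For 337 introns, called used introns below, the intron's own junction held over 50% of the reads at both splice sites on the mean of the 12 DMSO samples, and 336 of them had reads at both ends in all 24 samples. The number of reads behind a PSI is not in the files, so neither a counting interval nor a floor can be given, and the precision is known only from the spread of the samples. Between 281367 and 340236 splice sites had reads in a sample, with the lowest numbers in the WT E7107 group. Splicing percentages alone do not allow the cell type or the level of PHF5A to be checked.

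In untreated cells the introns of RP genes were almost fully removed. Over the 673 used-intron boundaries with reads in all samples, the mean PSI of a WT DMSO sample had a lowest value of 1.11%, a median of 1.16% and a highest value of 1.17%. In the WT E7107 samples the lowest, median and highest means were 6.11%, 6.49% and 6.68%. The 6 treated WT samples thus lay above every WT DMSO sample. In Y36C cells the corresponding values were 1.08%, 1.12% and 1.16% with DMSO and 1.34%, 1.37% and 1.41% with E7107. These groups did not overlap either, but the step was far smaller. Over all main-transcript introns, little-used ones included, the mean PSI of WT cells was 2.77% ± 0.056 (SD, n = 6) with DMSO and 9.02% ± 0.25 with E7107, and that of Y36C cells 3.00% ± 0.096 and 3.39% ± 0.075.

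**Figure D1:**
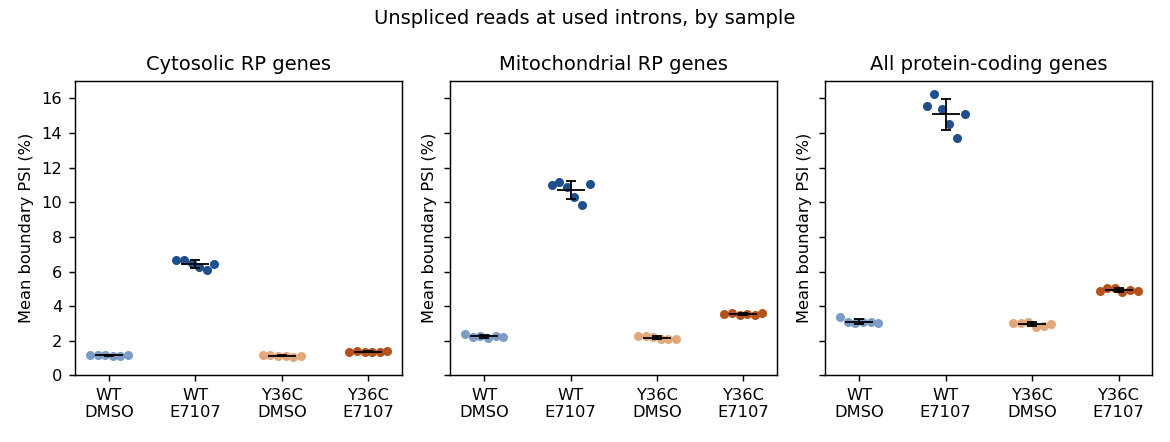
Mean boundary PSI (percent) over used introns in each sample, for cytosolic RP genes, mitochondrial RP genes and all protein-coding genes. Points are samples, and black marks are the group mean ± SD (n = 6); in RP genes the WT E7107 samples sit between 6.11% and 6.68%, and all other samples at or below 1.41%.

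E7107 raised retention in nearly every RP gene of WT cells. The gene measure, the mean log odds of the boundary PSI over a gene's main introns, rose in 77 of 79 RP genes and fell in 0 (limma over 10547 genes, Benjamini–Hochberg adjusted p of 0.05 or less), while 67.4% of all genes tested rose and 9.23% fell. At an unadjusted p under 0.05 the number that fell was also 0. The 2 genes that did not pass were RPLP1 and RPL36A. By single boundaries, 659 of 720 tested in RP genes rose and 9 fell, where 73.9% of all main-intron boundaries tested rose and 5.67% fell. Among used introns 620 of 672 boundaries rose and 6 fell, beside 75.6% and 5.25% of the used-intron boundaries of all genes. A boundary entered this test only if it had a PSI above 0 in all samples of a group, which most RP boundaries met. Without that condition 670 of 721 RP boundaries rose and 11 fell, against 41.1% and 3.02% of 192635 boundaries of all genes. The median rise in log odds was 1.22 in RP genes and 1.73 in all genes with the condition, and 1.21 and 0.84 without it. Reads per boundary are unknown, so the shares called were not compared at equal depth. Both ends rose in 319 of the 365 RP introns with both boundaries listed, and these lay in 77 genes. No such count over all genes stands beside it.

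Retention in RP genes was thus called often, yet the amounts were modest. Across the 336 used introns, E7107 added a median of 3.68 percentage points in WT cells, and the 10th and 90th percentiles were 0.77 and 12.02 points. The median was 4.82 points for the 91968 used introns of all genes, with a 90th percentile of 37.7 points. The 330 used introns of mitochondrial RP genes, whose products build the separate ribosome of the mitochondrion, had a median of 3.44 points and a 90th percentile of 27.3 points. An increase of more than 10 points was found in 13.4% of RP introns, 24.5% of mitochondrial RP introns and 35.97% of the introns of all genes. The upper tail that was present in other genes was therefore short in RP genes. Among introns retained at under 1% in WT DMSO cells, 9.85% of 264 RP introns and 29.98% of 40756 introns of all genes rose by more than 10 points. These shares are descriptions of unequal sets of introns and were not tested.

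**Figure D2:**
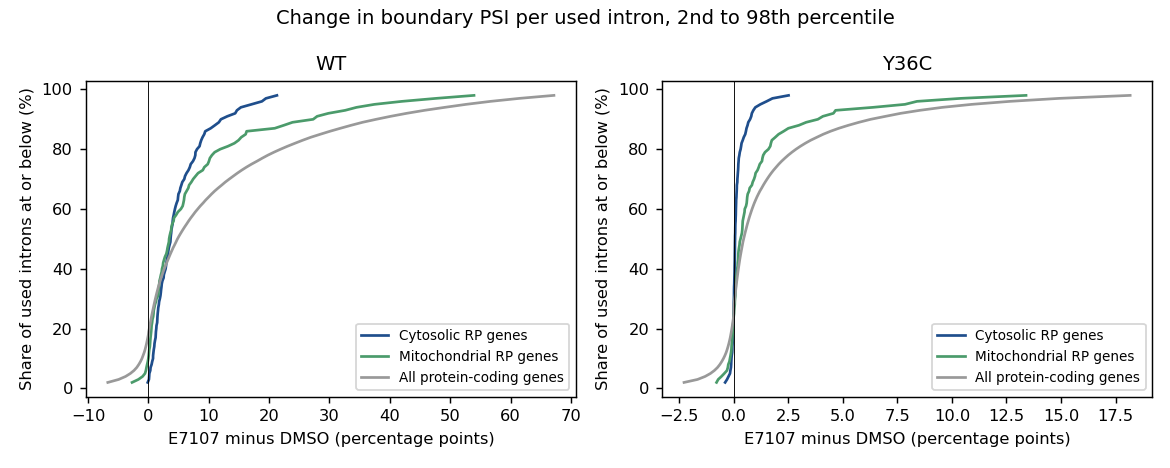
Cumulative distribution of the change in boundary PSI (E7107 minus DMSO, percentage points) per used intron, from the 2nd to the 98th percentile, in WT cells (left) and Y36C cells (right). The curve of RP genes rises steeply and ends earlier than those of mitochondrial RP genes and all genes, with 90th percentiles of 12.02, 27.3 and 37.7 points in WT cells.

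Large subunit genes made up most of the upper end of the response. The median increase in WT cells was 4.96 points over 207 used introns of large subunit genes and 2.07 points over 129 used introns of small subunit genes, and 19.8% of the former but 3.10% of the latter gained more than 10 points. All 32 small subunit genes rose, as did 45 of 47 large subunit genes, so the subunits differed in amount rather than in the number called. Large gene-level increases were found in RPL41, RPL13A and RPL4.

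RPL41 (chr12:56510374-56511751, plus strand, GRCh37), which encodes the shortest protein of the human ribosome, had a mean boundary PSI of 7.58%, 8.80% and 9.29% (lowest, median and highest) in WT DMSO and 25.6%, 26.4% and 27.4% in WT E7107. Its log odds rose by 1.53 ± 0.046 (SE, limma adjusted p = 8.1e-12). RPL13A, which encodes a large subunit protein at the ribosome surface, went from 0.635%, 0.697% and 0.752% to 15.8%, 16.9% and 17.6% (log odds 2.54 ± 0.037, adjusted p = 2.7e-14). RPL4, a protein that lines the exit tunnel, rose from a median of 0.541% to 14.8%. These 3 genes were named for the size of their change in the same data, so the gap between their treated and DMSO samples is no separate support.

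Genes of the ribosome's core and of its stalk responded unequally. RPL3, which lies near the peptidyl transferase centre, had 0.770%, 0.823% and 0.899% in WT DMSO and 9.17%, 9.69% and 10.7% in WT E7107. RPL5 and RPL11, which carry the small ribosomal RNA of the large subunit and can bind MDM2 when ribosome assembly fails, differed: the median PSI of RPL5 went from 0.495% to 4.99% and that of RPL11 from 0.878% to 2.77% (log odds 1.39 ± 0.044 and 0.53 ± 0.046). RPL10A went from a median of 3.73% to 13.1%. RPLP0, the base of the stalk that binds elongation factors, went from 1.77% to 7.66%, and over its used introns from 0.634% to 3.91%. Its partners RPLP1 and RPLP2 changed little: RPLP1 had 0.216%, 0.274% and 0.299% in WT DMSO and 0.314%, 0.333% and 0.410% in WT E7107 (adjusted p = 0.12), and RPLP2 rose from a median of 0.619% to 1.23%. RPL12, which sits at the base of the same stalk, rose from 0.985% to 1.29% (log odds 0.19 ± 0.037).

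Among small subunit genes, RPSA, known also as the laminin receptor, rose from a median of 0.414% to 1.36% and RPS27A, which makes a ubiquitin fusion protein, from 5.31% to 6.51%. RPS3, at the mRNA entry channel, rose from 0.341% to 2.09% over its used introns. The paralog RPS27L rose from 0.535% to 2.39%, and the paralog RPL36AL of the large subunit, which has a single intron, from 0.198% to 8.50%. At the lower end, RPS18 moved from 0.635% to 0.877% (log odds 0.16 ± 0.037) and RPS25 had the same median, 2.82%, with DMSO and E7107, although its log odds rose by 0.19 ± 0.049 (adjusted p = 0.0036). RPL36A had 0.853%, 1.06% and 1.23% with DMSO and 0.890%, 0.906% and 1.08% with E7107 (adjusted p = 0.62).

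**Figure D3:**
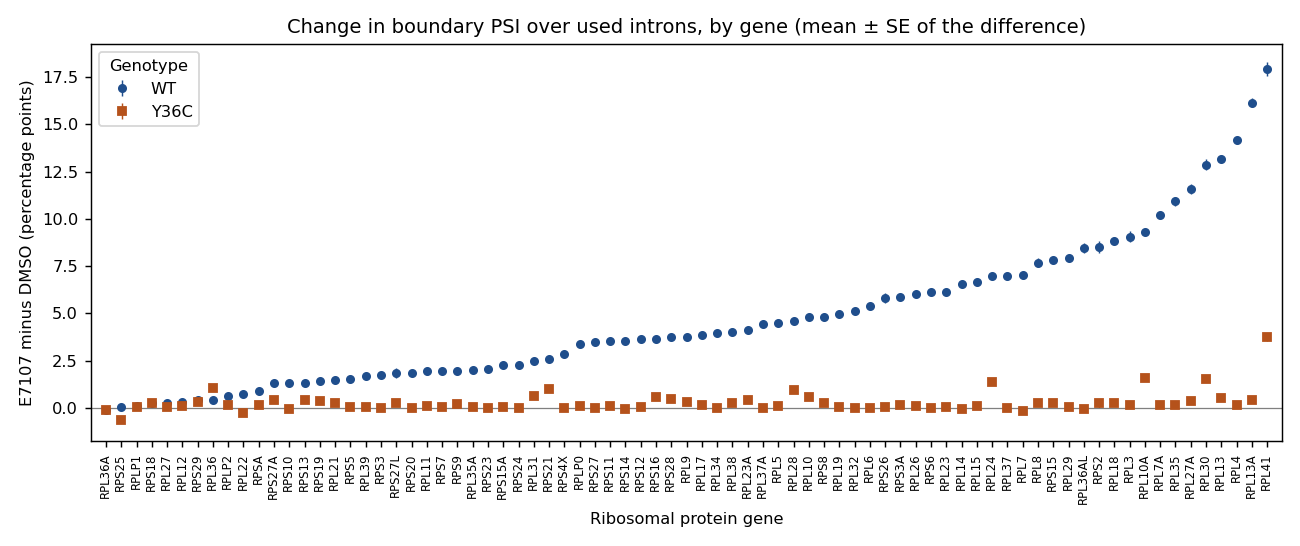
Change in mean boundary PSI over used introns (E7107 minus DMSO, percentage points) for 77 RP genes ordered by the change in WT cells. Circles are WT and squares Y36C, and bars are the SE of the difference (n = 6 per group); WT values run from −0.11 in RPL36A to 17.9 in RPL41, and most Y36C values lie near 0.

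Single introns of the same gene differed widely. In RPL41, intron 1 (chr12:56510444-56510558, plus strand) went from 14.6%, 17.4% and 19.1% in WT DMSO to 49.0%, 50.9% and 52.3% in WT E7107, on the mean of its ends. Intron 3 of RPS2, a small subunit gene, went from a median of 23.4% to 51.2%. In RPL4, introns 5 and 6, the latter the host of the small nucleolar RNA SNORD18C, went from 0.768% to 24.0% and from 1.82% to 24.5%. Intron 1 of RPL7A went from 1.59% to 24.2%. All of these changes passed the test at both ends, but the introns were picked for their large increases in the same data, so this is no separate support.

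The 3′ splice sites of these introns, the end at which SF3b works, are shown here beside those of the introns with the most negative change in WT cells. Each line gives the last 28 bases of the intron, 5′ to 3′ on the transcribed strand, read from the GRCh37 genome, with the final AG in capitals. Introns with large increases were the following.
RPL41 intron 1, chr12:56510531-56510558, plus strand: actgtagcctttctctctttccctgtAG
RPS2 intron 3, chr16:2013258-2013285, minus strand: ctccctacaattttcttgtttgtttcAG
RPL4 intron 5, chr15:66793843-66793870, minus strand: cagaatactaaaactgctcactttgtAG
RPL4 intron 6, chr15:66793444-66793471, minus strand: ctccctaatttttctttccctttaaaAG
RPL7A intron 1, chr9:136215749-136215776, plus strand: gtttaactgacgttttctttctgcccAG
The introns with the most negative change, on the mean of both ends, were the following.
RPS25 intron 4, chr11:118886469-118886496, minus strand: ttctgattcttttaatttttttttacAG
RPL22 intron 1, chr1:6257817-6257844, minus strand: ctctgttatcatttgtgtattttcttAG
RPL36A intron 4, chrX:100650688-100650715, plus strand: aaaacaacttttttctgttctgttacAG
RPL12 intron 1, chr9:130213084-130213111, minus strand: acagacactaactcttcttttcccccAG
RPS25 intron 2, chr11:118888256-118888283, minus strand: cttgtttctgttttgttttggtgagcAG

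Both kinds of site carried a pyrimidine-rich stretch. C or T made up 53.8% to 80.8% of the 26 bases before the AG in the introns shown for a large increase and 65.4% to 80.8% in those with the most negative change, and the median was 73.1% over the used introns of RP genes and of all genes alike. The letters CTNAC, a simple form of the human branch point motif, were found on the transcribed strand within the last 60 bases of 117 of 336 RP introns (34.8%) and 26.7% of 91968 introns of all genes. They were present in 12 of the 30 RP introns with the largest increase and in 11 of the 30 with the lowest change, counted with its sign. A match is only a match of letters.

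A few introns went the other way in WT cells. Intron 4 of RPS25, first in the list, did not pass the test at either end. Intron 1 of RPL12 fell at its 5′ splice site from 2.49% ± 0.19 (SD, n = 6) to 1.09% ± 0.18 (limma adjusted p = 3.8e-05) and at its 3′ splice site from 1.15% ± 0.11 to 0.781% ± 0.047 (adjusted p = 0.018). Intron 2 of RPS25 fell at both ends, from 2.58% ± 0.24 to 1.82% ± 0.19 at the 5′ splice site (adjusted p = 0.0083). Intron 1 of RPL22, a gene of the large subunit, fell at the 3′ splice site from 7.05% ± 0.72 to 4.68% ± 0.37 (adjusted p = 8.6e-04) and showed 1.74% ± 0.20 and 1.73% ± 0.38 at the 5′ splice site. Intron 4 of RPL36A fell at the 5′ splice site from 3.72% ± 0.40 to 2.01% ± 0.74 (adjusted p = 0.0035). RPS24, whose last exons are alternatively spliced, accounted for the remaining 3 of the 9 boundaries that fell, at introns 4 and 5, which did not meet the definition of used introns.

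The ends of first introns behaved unlike those of later introns. In WT E7107 cells the 3′ splice site had the higher boundary PSI in 51 of 58 first introns of RP genes, with medians of 3.398% at the 5′ splice site and 9.79% at the 3′ splice site. Later introns showed it in 135 of 278 (medians 4.16% and 3.94%), and last introns in 17 of 72 (4.63% and 3.02%). The unequal ends of first introns were already present in WT DMSO cells, where the 3′ splice site was higher in 50 of 58 introns at medians of 0.227% and 1.18%. In all genes 3581 of 7001 first introns had the higher value at the 3′ splice site in WT E7107 cells, at medians of 9.81% and 8.76%. In RPL27A, intron 1 went from 0.326% ± 0.24 to 10.02% ± 0.84 at the 5′ splice site and from 8.48% ± 1.1 to 40.5% ± 2.2 at the 3′ splice site. In RPL13 the corresponding steps were from 0.213% ± 0.14 to 12.6% ± 1.1 and from 18.2% ± 1.5 to 44.7% ± 1.0. A PSI at the 3′ splice site counts every read that enters the exon from the intron, including reads of RNA that starts inside the intron. In RPS27A the 3′ splice site of intron 1 stood at 46.5% ± 2.0 in WT DMSO and 46.4% ± 1.8 in WT E7107, while the 5′ splice site went from 2.75% ± 0.74 to 5.90% ± 0.70 (adjusted p = 2.6e-04).

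**Figure D4:**
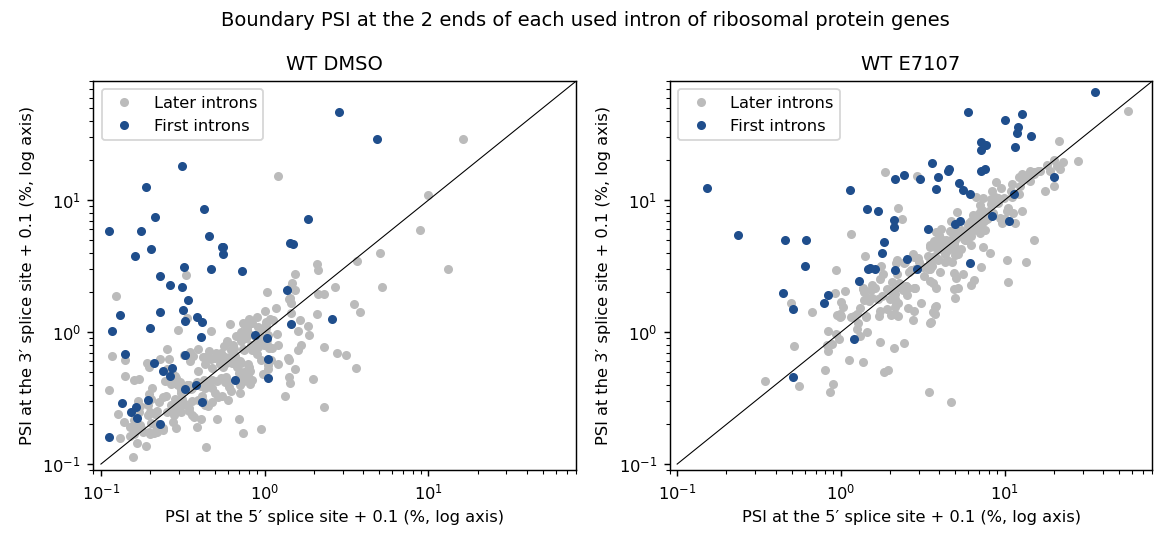
Boundary PSI at the 5′ splice site (horizontal, percent plus 0.1, log axis) against the 3′ splice site (vertical) for each used intron of 77 RP genes in WT DMSO (left) and WT E7107 (right). Blue points are first introns, grey points later introns, and the line marks equal values; most first introns lie above the line in each panel.

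Other features of the introns went only weakly with the response. Over the 336 used introns, Spearman's rho with the change in WT cells was 0.16 for GC content and −0.11 for length, given as a description because introns of a gene share their transcript. The median increase was 4.30 points in 145 introns with a GC content of 50% or more, 2.84 points in 119 introns between 40% and 50%, and 3.68 points in 72 introns below 40%. Introns of at least 1000 bases gained a median of 2.69 points (84 introns), those from 500 to 1000 bases 3.83 points (74 introns), those from 200 to 500 bases 4.07 points (106 introns) and those under 200 bases 3.74 points (72 introns). In the 58 introns that hold a small nucleolar RNA the median was 4.26 points, against 3.49 points in the 278 others. All 58 introns with a small nucleolar RNA were higher in WT E7107 than in WT DMSO cells on the mean of the 6 samples. So were 269 of the 278 others and 75067 of the 91968 used introns of all genes. RP genes have many processed pseudogenes, which lack introns: 1587 annotated pseudogenes carry the names of the 82 genes, with a median of 12.5 and up to 133 for RPL21. A spliced read can map to such a copy while a boundary read cannot, so how multiply mapped reads were counted can move these PSI values. Across 79 genes the number of pseudogenes had a Spearman's rho of −0.10 with the PSI in WT DMSO and −0.039 with the change in WT cells.

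In Y36C cells most of the retention was absent. Retention rose with E7107 in 38 of 79 RP genes and fell in 3, where 42.5% of all genes rose and 0.645% fell. By boundaries 149 of 695 rose and 14 fell, against 30.7% and 1.12% of all main-intron boundaries tested, and over used introns 136 of 649 rose and 9 fell, against 31.7% and 1.02%. Without the condition on PSI above 0 the figures were 155 and 12 of 721, against 7.67% and 0.223%. The increases were small. The median change over used introns was 0.06 points, compared with 0.31 points in mitochondrial RP genes and 0.45 points in all genes, and 5.95% of RP introns rose by more than 1 point, compared with 27.9% and 36.98%. Thus RPL13A had a median PSI of 0.693% with DMSO and 1.12% with E7107, and RPL4 0.465% and 0.656%. RPL3, at 0.711% and 0.866%, did not pass the test (adjusted p = 0.093), and neither did RPL5, at 0.450% and 0.529% (adjusted p = 0.17), or RPL11, at 0.989% and 1.09% (adjusted p = 0.19).

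The genes that rose in Y36C cells belonged to both subunits, with 16 of 32 in the small and 22 of 47 in the large subunit. The increases of used introns that stood highest were those of 4 introns of large subunit genes. In intron 1 of RPL41 the PSI went from 14.9%, 15.7% and 16.3% (lowest, median and highest) with DMSO to 25.8%, 27.7% and 28.9% with E7107. Intron 1 of RPL10A went from a median of 3.39% to 9.05%, intron 1 of RPL24 from 1.51% to 6.497% and intron 2 of RPL30 from 0.805% to 5.49%. Both ends passed the test in each of these 4 introns, but they were picked for the size of their increase in the same data, so this is no separate support. The next in this order was intron 5 of RPS21, a small subunit gene, with an increase of 3.23 points. Beside RPL41, whose intron is shown above, the 3′ splice sites of RPL10A and RPL24, again with the final AG in capitals, were the following.
RPL10A intron 1, chr6:35436548-35436575, plus strand: tgagcgccctgtcgcttctctcccgcAG
RPL24 intron 1, chr3:101405402-101405429, minus strand: cctgatggactttcactttttgttgcAG
The 3 genes that fell were RPS24, RPS25 and RPL34, and these calls were not stable: with an offset of 0.1 points in the log odds RPS24 alone passed (adjusted p = 0.026), and over used introns RPS25 alone (adjusted p = 0.019). RPS25 fell from a median of 2.62% to 1.87% (log odds −0.11 ± 0.033, adjusted p = 0.019), and its intron 4, of 82 bases, from 6.71% to 3.94%. Over used introns alone RPS24 had medians of 0.148% and 0.131% and RPL34 0.308% and 0.264%.

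The genotypes were compared directly by the difference between their E7107 effects, fitted on all 24 samples. Retention responded less in Y36C than in WT cells in 74 of 79 RP genes and more in 1, where 58.8% and 13.6% of all genes were called in these directions. By boundaries the counts were 626 and 4 of 720, against 57% and 9.08%, and over used introns 590 and 3 of 672, against 58.3% and 8.7%. Large differences were found in RPL13A (log odds −2.33 ± 0.041, adjusted p = 1.0e-22) and RPL4 (−2.33 ± 0.039). The effects in RPLP1 (−0.02 ± 0.037, adjusted p = 0.65), RPS18 (−0.02 ± 0.039, adjusted p = 0.71) and RPL36A (−0.07 ± 0.052, adjusted p = 0.22) were not distinguished between genotypes. RPL36, another large subunit gene, was the exception, with a PSI that went from a median of 3.02% to 3.44% in WT cells and from 2.80% to 3.76% in Y36C cells (difference of effects 0.11 ± 0.042, adjusted p = 0.025). This call was lost with an offset of 0.1 points (adjusted p = 0.10), and the adjusted p went down to 0.0052 under the other alternatives. In treated cells alone, 75 of 79 RP genes were lower in Y36C than in WT cells and 0 were higher, beside 61.9% and 15.1% of all genes, and the count of higher genes was 0 at an unadjusted p under 0.05 as well. By boundaries 646 of 720 were lower and 11 higher, beside 65.2% and 11.9%. This comparison shares its treated samples with the tests above.

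Without the drug, the genotypes hardly differed in the retention of RP introns. Exon skipping is not part of these counts, and skipping in RPS2 and RPLP1 did differ in DMSO, as given below. Of 689 boundaries 2 were higher and 1 was lower in Y36C DMSO than in WT DMSO cells, and of all main-intron boundaries tested 0.213% were higher and 0.158% lower. The largest difference was at the 5′ splice site of intron 5 of RPL34, at 38.8% ± 7.1 in WT and 70.6% ± 2.7 in Y36C cells (adjusted p = 0.0019). The 3′ splice site of intron 1 of RPL10 had 71.5% ± 2.5 and 80.3% ± 1.5 (adjusted p = 0.019), and neither of these introns was a used one. The 3′ splice site of intron 1 of RPL30 was lower, at 5.32% ± 0.57 in Y36C against 7.35% ± 0.26 in WT cells (adjusted p = 0.044). At the gene level 2 RP genes, RPL34 among them, were higher in Y36C and 0 genes lower by limma, where 0.237% of all genes were higher and 0.398% lower. At an unadjusted p under 0.05 by limma, 6 RP genes were lower and 2 higher, and with a replicate block 3 were lower and 2 higher. The share of all genes at this threshold is not given, so these counts are not read as a difference.

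Exon skipping changed in a different way from retention. A skipping junction joins exons of the main transcript across at least 1 exon, and its PSI was read at both of its splice sites, each counted as a separate measurement. In WT cells 95 of 268 such measurements rose with E7107 and 6 fell, from 52 junctions of 33 RP genes and 4 junctions, respectively, and in all genes 34.3% rose and 13.9% fell. In Y36C cells 73 of 169 rose and 1 fell, the former from 37 junctions of 34 genes, while in all genes 52.6% rose and 1.35% fell. The median increase among those that rose was 0.645 points in WT cells and 0.722 points with the Y36C protein. Retention was called in 38 RP genes and a skipping junction in 34 in Y36C cells, against 77 and 33 in WT cells. The gene counts for skipping rest on unequal numbers of measurements, 268 in WT and 169 in Y36C cells. They have no share over all genes beside them. By measurements, the share that rose in RP genes was 35.4% in WT and 43.2% in Y36C cells, against the 34.3% and 52.6% of all genes.

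The events with the largest increases did not follow 1 pattern across genotypes. Skipping of exon 3 of RPL41 (23 bases, chr12:56510973-56510995), seen from the 3′ splice site of exon 4, was 0.075%, 0.146% and 0.194% in WT DMSO and 12.04%, 12.6% and 13.03% in WT E7107 (adjusted p = 4.5e-11). In Y36C cells it went from a median of 0.106% to 2.77%, and the difference of effects was −1.38 ± 0.086 (adjusted p = 9.7e-12). Skipping of exon 5 of RPS3A, a small subunit gene (110 bases, chr4:152025329-152025438), went from 0.355% to 9.82% in WT and from 0.426% to 3.45% in Y36C cells. These events were therefore weaker in Y36C cells, as retention was.

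Other skipping events were stronger in Y36C cells. Exon 5 of RPL24 (64 bases, chr3:101401273-101401336), seen from the 3′ splice site of exon 6, was skipped at 0.126%, 0.586% and 0.693% in WT DMSO and 9.25%, 9.61% and 10.5% in WT E7107. Y36C cells skipped it at 0.429%, 0.527% and 0.778% with DMSO and at 12.7%, 13.8% and 14.2% with E7107. The difference of effects was 0.28 ± 0.11 (adjusted p = 0.045). Exon 2 of RPLP1 (75 bases, chr15:69745986-69746060) was skipped at 2.30%, 2.44% and 2.90% in WT DMSO and at 2.37%, 2.74% and 2.95% in WT E7107 (adjusted p = 0.61). In Y36C cells the same junction went from 3.37%, 3.90% and 4.05% to 10.7%, 11.1% and 11.4% (adjusted p = 1.2e-07), with a difference of effects of 0.94 ± 0.091 (adjusted p = 1.1e-08). RPLP1 also differed between genotypes in DMSO (0.34 ± 0.046, adjusted p = 0.015), and its retention passed the test in neither genotype. In RPLP2, which forms dimers with RPLP1 on the stalk, skipping of exon 2 went from a median of 2.84% to 3.19% in WT (adjusted p = 0.30) and from 2.47% to 5.24% in Y36C cells (adjusted p = 1.2e-05), with a difference of effects of 0.51 ± 0.093 (adjusted p = 7.5e-05). The junction that omits exon 5 of RPS24 is the major form in these cells, and it went from 80.03% to 77.98% in WT (adjusted p = 0.19) and from 77.6% to 82.4% in Y36C cells (adjusted p = 2.2e-04), with a difference of effects of 0.40 ± 0.086 (adjusted p = 5.3e-04).

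Exon 3 of RPS2 (90 bases, chr16:2014277-2014366) had the largest increase in skipping among the events that rose in Y36C cells. At the 3′ splice site of exon 4 the skipping junction had 9.38%, 10.2% and 13.01% in WT DMSO and 16.99%, 18.2% and 19.0% in WT E7107. In Y36C cells it had 18.6%, 20.3% and 23.9% with DMSO and 50.2%, 52.2% and 55.6% with E7107. The Y36C samples were higher than the WT samples already in DMSO (0.71 ± 0.077, adjusted p = 0.0037), and the difference of the E7107 effects was 0.86 ± 0.11 (adjusted p = 9.8e-07). Seen from the 5′ splice site of exon 2, where the reads of all transcripts that reach exon 2 are counted, the same junction had medians of only 0.781%, 2.36%, 1.74% and 7.69% in the 4 groups. At this 3′ splice site the boundary PSI moved in opposite directions, from 29.0% ± 2.1 to 47.3% ± 3.6 in WT (limma adjusted p = 9.8e-06) and from 24.8% ± 1.2 to 17.1% ± 2.4 in Y36C cells (adjusted p = 0.0012). The skipping junction and the boundary share the reads of this site, so a rise in the one lowers the share left for the other. On the mean of both ends, the PSI of intron 3 changed by 0.21 points in Y36C cells, so the fall at 1 end does not show less retention of the intron. The skipped exons of RPS2 and RPLP1 have lengths divisible by 3, and those of RPL41, RPS3A and RPL24 do not.

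The 3′ splice sites directly before the 5 skipped exons are shown because skipping means that they were passed over. They are given again as the last 28 intron bases with AG in capitals.
RPL41 intron 2, chr12:56510945-56510972, plus strand: ttatctgctgcttgtgatcggttgctAG
RPS3A intron 4, chr4:152025301-152025328, plus strand: aaaaaaatttactgttactggtttgcAG
RPL24 intron 4, chr3:101401337-101401364, minus strand: tttgccttaagttacttttaccccacAG
RPS2 intron 2, chr16:2014367-2014394, minus strand: tggtcactggcgccttttctccctttAG
RPLP1 intron 1, chr15:69745958-69745985, plus strand: gatggattgacgtttttatttgttgtAG
C and T made up 50% of the 26 bases before the AG in RPS3A, 57.7% in RPLP1, 65.4% in RPL41, 73.1% in RPL24 and 76.9% in RPS2, and the letters CTNAC were not found in the last 60 bases of these 5 introns.

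**Figure D5:**
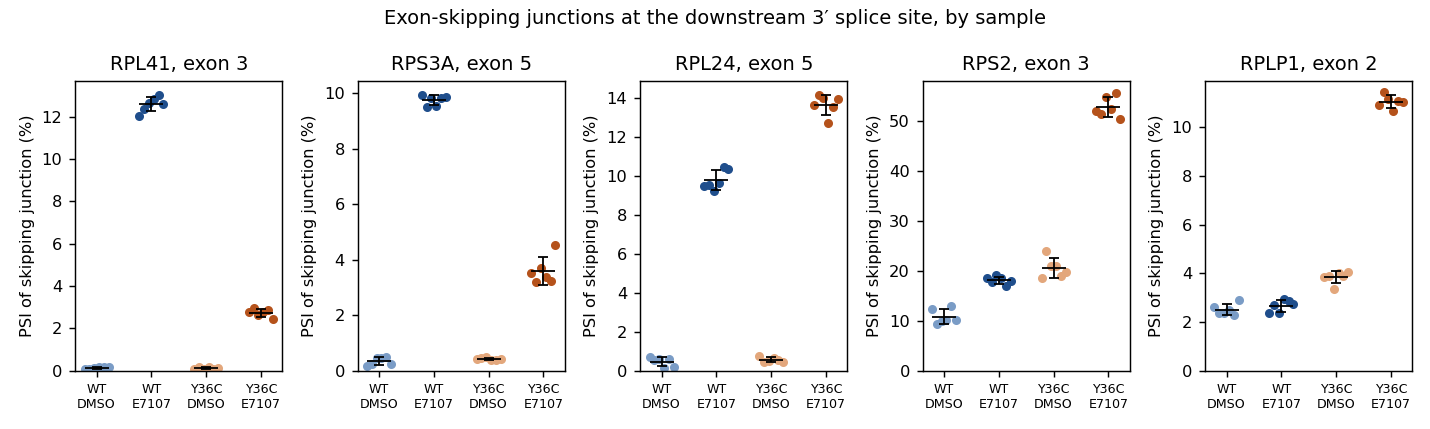
PSI (percent) of 5 exon-skipping junctions at the downstream 3′ splice site in each sample, with the group mean ± SD (n = 6) in black and a separate vertical scale per panel. RPL41 and RPS3A are highest in WT E7107 cells, and RPL24, RPS2 and RPLP1 are highest in Y36C E7107 cells.

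The 4 skipping junctions that fell in WT cells belonged to RPL10, RPL15, RPL17 and RPS2. In RPL15 and RPL17 the omitted exon is one that these cells mostly leave out. The junction that omits exon 2 of the main transcript of RPL15 fell in WT cells from 83.0%, 83.6% and 85.2% to 69.6%, 69.8% and 71.6% at the 3′ splice site (adjusted p = 7.3e-07), and that of RPL17 from 77.4%, 81.6% and 83.1% to 40.2%, 42.3% and 48.6% at the 5′ splice site (adjusted p = 2.4e-08). In Y36C cells RPL17 had medians of 77.6% and 76.3% (adjusted p = 0.92).

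By the difference of effects over skipping measurements, 40 of 289 in RP genes were larger in Y36C cells and 57 were larger in WT cells, where 35.5% and 16.3% of all such measurements were called in these directions.

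Most genes of the lists that work with or beside the cytosolic ribosome rose in WT cells, as did 67.4% of all genes, of which 9.23% fell. In Y36C cells 42.5% of all genes rose. Of 25 translation factors and co-regulated genes, such as EEF1A1 and EIF3E, 23 rose in retention in WT cells and 1 fell, and 16 rose in Y36C cells. Of 18 genes of ribosome assembly 17 could be tested, and 16 of them rose in WT and 12 in Y36C cells. Of 78 mitochondrial RP genes 68 rose and 1 fell in WT cells, and 43 rose in Y36C cells. The median log odds were 1.48, 2.84 and 1.22 in WT cells for these 3 lists, beside 1.20 for the RP genes and 0.93 for all genes. In Y36C cells the corresponding medians were 0.09, 0.39 and 0.19, beside 0.08 for the RP genes and 0.18 for all genes. These gene means include boundaries with a PSI of 0. Over single boundaries that met the condition of a PSI above 0, RP genes had the smaller median. It was 1.22 for RP genes and 1.73 for all genes in WT cells, and 0.05 and 0.42 in Y36C cells.

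Some introns with very high values were little-used introns of odd main transcripts and do not measure retention. In intron 4 of RPS23 the boundary PSI was 98.2% ± 0.35 and 98.5% ± 0.10 at its ends in WT DMSO, with reads missing in some samples of other groups. In intron 5 of RPL23 it was 97.4% ± 0.99 and 78.7% ± 7.5, and in intron 2 of RPL17 91.0% ± 2.4 and 25.2% ± 1.2.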

How the data were processed

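The authors aligned the reads of polyA RNA libraries to hg19 with STAR (version not given in the sources used here), computed PSI from its junction counts and deposited these percent values per splice site for 24 samples of 4 groups, with 6 samples each. Each file has 1830076 entries, and 1854 without a strand or on the mitochondrial chromosome were left out. Read counts and depths are not in the files, so the precision of a single PSI is unknown. The percentages at a site summed to 100 or to 0, and 0 was taken as missing. No 2 samples were identical.

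Genes and introns came from GENCODE lifted to GRCh37, with 98.7% of 191614 main introns ending in GT and AG. The main transcript was the APPRIS principal one with the longest coding sequence. PSI was turned into natural-log odds after 1 percentage point had been added to each side, and limma 3.58.1 (R 4.3.3) was fitted over all rows or, for genes, over the mean of the boundaries with reads in all samples, with Benjamini–Hochberg adjustment over everything fitted and a threshold of 0.05. The fit was tested on simulated data. Same-numbered samples of different groups did not deviate together (36 pairs, correlations −0.0059 to 0.0080), so no pairing was used.

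The members and gene lists were chosen with earlier results of these data known. Named were the 5 genes with the highest and the 5 with the lowest change, counted with its sign, in each genotype, the 3 introns with the highest PSI per group, the 5 exon-skipping measurements with the largest increase per genotype, members called between the DMSO groups, and a list of stalk, core and paralog genes. Other introns and genes were named after their values were seen. The definition of used introns was also chosen after seeing the data. Some members count in the totals but are not reported here by themselves. Alternatives tried were other offsets, PSI in percent, other filters, other intron sets and a replicate block. No columns of the authors' own comparisons were present.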

Additional observations from a re-analysis of the deposited data

Results flagged for a closer look

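In 4 of 108 groups of 6 samples that were looked at, a single sample stood far from the other 5, and chance alone gives about 1 in 20 such groups. Replicate 2 of Y36C DMSO had the highest mean PSI over RP main introns, 3.19% against a group median of 2.979%, and also the highest mean PSI of RPL10, 9.531% against 8.973%. Replicate 4 of WT E7107 was lowest in RPL10A, at 12.42% against 13.06%, and replicate 5 of the same group was lowest in RPL21, at 8.023% against 9.51%.

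The E7107 effect on retention differed between genotypes by the test of the difference itself in 23 of the 26 named genes, all of them with the smaller effect in Y36C cells. Many of these genes were named for the size of their changes in the same data, so this count is no separate support. Of all genes, 58.8% had a smaller and 13.6% a larger effect in Y36C cells. RPL36, the RP gene called with a larger effect there, was not among the 26. Among large subunit genes the difference in log odds was −2.33 in RPL13A, −2.325 in RPL4, −2.16 in RPL36AL, −1.78 in RPL3, −1.59 in RPL34, −1.34 in RPL5, −1.25 in RPL41, −1.10 in RPLP0, −1.02 in RPL10A, −0.76 in RPL10, −0.57 in RPL21, −0.48 in RPL11, −0.26 in RPLP2 and −0.11 in RPL12. Among small subunit genes it was −1.32 in RPS14, −0.84 in RPS3, −0.83 in RPS7, −0.81 in RPS2, −0.63 in RPS27L, −0.62 in RPS24, −0.46 in RPS27A, −0.41 in RPSA and −0.30 in RPS25. By boundaries of RP introns, 4 effects were larger and 626 smaller in Y36C cells, and by skipping measurements 40 were larger and 57 smaller.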

How the results depend on the processing

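Of the summary values under other settings, 127 stayed within the limits set for a like value and 37 moved. For single named genes 282 kept their call, 26 lost it and 4 gained it. The counts that moved were mostly small ones or followed from fewer measurements being tested. A further setting kept only boundaries at a mean PSI of 5% or more in at least 1 of the groups compared. The RP boundaries then called were 307 higher and 3 lower of 319 in WT, and 20 higher and 7 lower of 59 in Y36C. They were 7 higher and 300 lower of 317 between the E7107 groups, and 1 higher and 300 lower of 319 for the difference of effects. A boundary could pass this filter only through the group where its PSI was high, so these shares lend the calls no support. With used introns only, 9 boundaries fell in Y36C cells, 0 were higher between the DMSO groups and 4 were higher between the E7107 groups. An offset of 0.1 points left 0 boundaries lower between the DMSO groups.

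The numbers do not pair the samples. With a replicate block, 8 RP boundaries fell in Y36C cells, and between the DMSO groups 0 were higher and 0 lower by limma. Of the genes that fell in Y36C cells 1 was left with an offset of 0.1 points and 1 with the replicate block (RPS24 in each case), and 1 with used introns only (RPS25). Of those higher between the DMSO groups 1, 0 and 0 were left in the same order, and with the offset of 0.1 points 0 genes had a larger effect in Y36C cells, where RPL36 had been called. Skipping measurements that rose in WT cells numbered 165 with an offset of 0.1 points, 59 with an offset of 5 points, 43 with PSI in percent, 190 of 676 with no requirement of a PSI above 0 and 9 of 16 at a mean PSI of 5% or more. At that mean PSI, 12 of 17 rose in Y36C cells, and 15 of 23 had a larger effect there than in WT cells. These measurements too could pass only through the group where they were high.

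The mean PSI, in the order WT with DMSO and with E7107, then Y36C with DMSO and with E7107, was 13.64%, 21.36%, 13.91% and 14.27% over any annotated intron and 1.15%, 6.447%, 1.123% and 1.38% over used introns. The read depth behind each PSI is unknown, and how multiply mapped reads were counted was not tested.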
